A study of Mus musculus with 4 samples.

Results

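The EGF receptors and their ligands were described in mouse kidney nuclei as the 8 genes of a fixed list, of 19609 gene rows used. They were 4 ligands, Egf, Hbegf, Areg and Nrg1, and 4 receptors, Egfr, Erbb2, Erbb3 and Erbb4. They were chosen by name, with earlier results of these data known. Their mean normalized expression was read in 23 clusters of nuclei from 4 mice, which gives 92 columns. The nuclei came from kidney cortex of male mice of mixed strain, 1 mouse per condition. The control mouse and the control mouse with AAI had the genotype TRE-hKLF6, a human KLF6 transgene that needs an activator to be transcribed. The hKLF6 OE mouse and the hKLF6 OE mouse with AAI had the genotype CAG-rtTA,TRE-hKLF6, in which the CAG promoter drives the activator in most tissues. All 4 mice carried the transgene and were fed doxycycline, which turns on the activator where it is present. AAI is aristolochic acid I, a plant toxin that damages DNA and is taken up by the proximal tubule, and kidneys were taken 1 day after 1 injection. The other mouse of each genotype is labelled with no treatment, while the methods describe DMSO, the solvent of AAI, for controls in general. It is called uninjured or without AAI here.

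In the EGF family, membrane-bound ligands are cut free by sheddases or act on neighbouring cells, and a bound receptor pairs with another to start the MAPK, PI3K-Akt and STAT cascades. Egf, Hbegf and Areg act through Egfr, Hbegf also through Erbb4, and Nrg1 acts through Erbb3 and Erbb4, while Erbb2 has no ligand of its own and serves as a partner. In the kidney, Egf is known as a product of the thick ascending limb and distal convoluted tubule that enters the urine, and Egfr is known for its part in the regeneration and in the scarring of the injured proximal tubule.

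Values are counts per 10000 of a nucleus, averaged over the nuclei of 1 cluster in 1 mouse, and every column summed to 10000. Neither nuclei nor counts per column are given there, which leaves the depth of a value unknown and without an interval. With 1 mouse per condition there was no spread between replicates and no test, so every difference below describes these 4 mice. The table has 0 rows for the human transgene, so the hKLF6 OE labels could not be checked on it. Mouse Klf6 had medians over the clusters of 0.335 in control, 0.537 in control with AAI, 0.179 in hKLF6 OE and 0.468 in hKLF6 OE with AAI. Most cluster names matched their markers, but several clusters held markers of other cells. The cluster named EC-1, with 3.80 of the endothelial gene Flt1 as the mean of 4 mice, also held 31.4 of the ascending limb cotransporter Slc12a1 and 17.3 of the proximal transporter Slc5a12. The cluster DCT_CNT held 14.4 of Slc5a12, LH-DL held 1.61 of the podocyte gene Nphs1, and the macrophage cluster held 6.68 of Flt1. Between 60.5% and 63.4% of genes stood at 0 in the columns of LH-AL-3. In uninjured mice 62.6% and 40.8% of genes stood at 0 in InjuredPT-A and 51.3% and 55.7% in InjuredPT-B, against 15.1% to 31.3% in the normal proximal tubule clusters over all mice.

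Egf and Erbb4 had their highest cluster means in the ascending limb, and Nrg1 and Egfr had theirs in the proximal tubule. Erbb3, Hbegf, Erbb2 and Areg reached a value of 0.5 in 51, 19, 0 and 0 of 92 columns, and no neighbours in their orders stood apart. Across the 23 cluster means on the log2 scale, Pearson's r was 0.844 between Egf and Erbb4 and 0.870 between Egfr and Nrg1, and it was -0.445 between Egf and Egfr. These r describe clusters that share the same 4 libraries and, in part, the same free RNA. As a rough way to set levels of different genes side by side, the highest cluster mean was divided by the genomic span in kilobases. This scale gave 1.69 for Egf, 0.0927 for Hbegf, 0.0816 for Erbb4, 0.0424 for Erbb3, 0.0385 for Egfr, 0.0136 for Nrg1, 0.0121 for Erbb2 and 0.0045 for Areg. It takes counts to rise in proportion to span, which was not tested, so the order holds on this scale only. Egf thus stood above the rest per length, Hbegf and Erbb3 stood above Egfr and Nrg1 on that scale, and Nrg1 and Erbb4, which span 1069 kb and 1076 kb, moved down in the order.

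**Figure D1:**
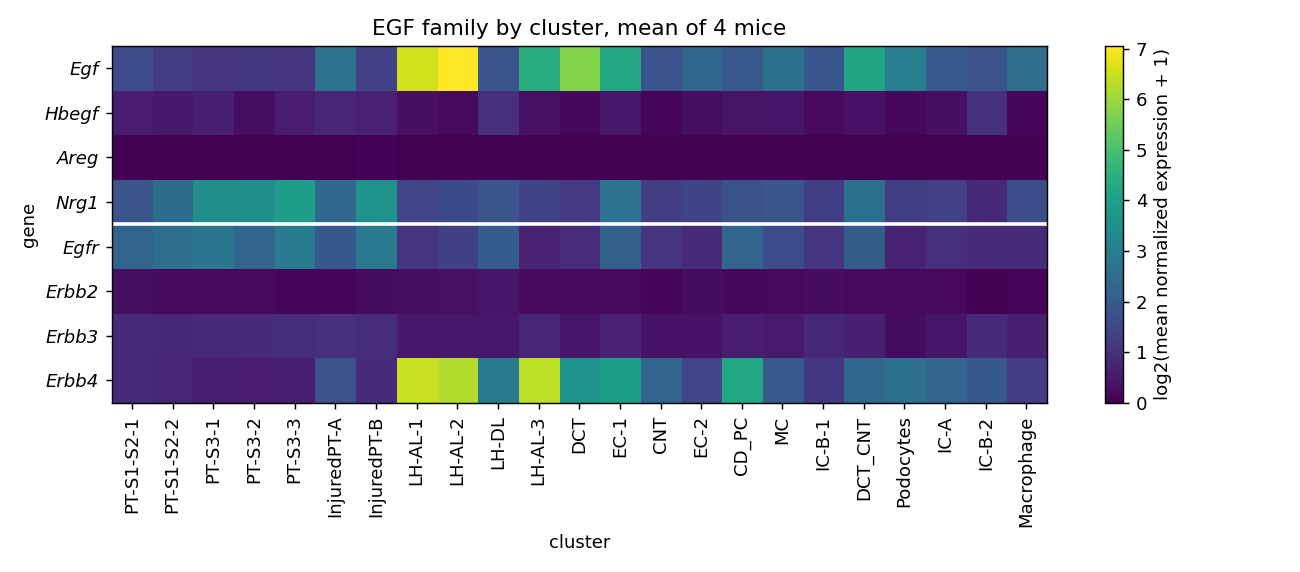
Log2 of the mean normalized expression of 4 mice plus 1 (color) for the 4 ligands (rows above the white line) and the 4 receptors (below) in 23 clusters (columns). Colors compare clusters within a row, not genes, since values are not per length. Egf is brightest in LH-AL-2 and Erbb4 in LH-AL-1, with means of 131.7 and 87.8. Nrg1 and Egfr are brightest in PT-S3-3, with means of 14.5 and 6.39.

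The 3 genes that set these patterns and have a promoter entry in RefSeq are shown by the 250 bases before their start, in GRCm38.p6, since KLF6 is a zinc finger factor of a family that binds GC-rich and CACCC sequences. Capitals mark matches on either strand to the GC box GGGCGG or to CACCC, and no match overlapped another. Egf is at chr3:129755323-129755572 on the minus strand, Egfr at chr11:16751953-16752202 on the plus strand and Erbb4 at chr1:69108060-69108309 on the minus strand, each written 5′ to 3′ in the direction of the gene.
Egf: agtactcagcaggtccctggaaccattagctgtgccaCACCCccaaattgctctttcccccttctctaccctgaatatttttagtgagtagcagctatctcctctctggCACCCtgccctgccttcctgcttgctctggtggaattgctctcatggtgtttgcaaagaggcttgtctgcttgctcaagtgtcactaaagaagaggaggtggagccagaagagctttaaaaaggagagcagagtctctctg
Egfr: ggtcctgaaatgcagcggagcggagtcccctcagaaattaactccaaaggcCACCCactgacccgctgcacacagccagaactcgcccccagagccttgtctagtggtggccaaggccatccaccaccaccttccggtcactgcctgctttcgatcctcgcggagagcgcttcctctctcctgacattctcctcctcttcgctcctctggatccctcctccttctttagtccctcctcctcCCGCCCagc
Erbb4: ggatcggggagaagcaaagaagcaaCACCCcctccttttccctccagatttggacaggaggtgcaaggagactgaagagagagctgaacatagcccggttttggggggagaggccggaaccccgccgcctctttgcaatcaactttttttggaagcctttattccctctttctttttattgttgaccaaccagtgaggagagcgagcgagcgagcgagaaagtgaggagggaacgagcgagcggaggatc

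Egf had 2 CACCC matches, at positions -213 and -141 from the start, Egfr had 1 at -199 and 1 GC box at -9, and Erbb4 had 1 CACCC match at -225. Of 32851 promoters of the same length, 52.0% held CACCC and 32.7% held GGGCGG, so these matches are common. None of the 3 windows held TGACTCA (with its reverse complement TGAGTCA, an AP-1 sequence, in 4.46% of promoters), TATAAA (12.4%) or TGACGTCA (the CRE, 1.55%). The Areg window had the most kinds of match, with a GC box at -52, CACCC at -78 and -7, TATAAA at -31 and TGACGTCA at -61. Of the 8 genes, 5 had an entry, and Erbb3, Hbegf and Nrg1 were not searched. Egf had another entry, at chr3:129725087-129725336 on the minus strand, which is not shown and held no match to any of these sequences. A match describes letters only.

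Egf, the ligand that gives the family its name, lies on chromosome 3 (129677565 to 129755316, minus strand, GRCm38). It read 164 in control, 132 in control with AAI, 104 in hKLF6 OE and 127 in hKLF6 OE with AAI in LH-AL-2, its highest cluster. In LH-AL-1 the same mice gave 117, 92.6, 60.4 and 105. In DCT, the distal convoluted tubule cluster, they gave 50.7, 56.6, 67.2 and 32.4. Each of these 3 clusters overlapped its neighbour in the order over the 4 mice, but LH-AL-2 stood above DCT in every mouse. LH-AL-3, EC-1 and DCT_CNT followed with means of 20.2 ± 18.3, 18.04 ± 2.76 and 16.9 ± 3.52 (SD, n = 4), and a gap without overlap separated DCT_CNT from podocytes at 6.82 ± 1.93. The other gap, of 22 neighbours in the order, lay below PT-S1-S2-1. At the foot stood InjuredPT-B at 1.63 and 4 normal proximal tubule clusters between 1.09 and 1.32.

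The low level of Egf in the proximal tubule stood beside that of Slc12a1. In the 5 normal proximal tubule clusters Slc12a1 lay between 1.18 and 2.25, and the ratio of Egf to Slc12a1 lay between 0.86 and 0.918. That range lies above the one of the 3 ascending limb clusters, 0.162 to 0.844, and the ratio was 18.05 in DCT, 8.81 in DCT_CNT and 2.98 in podocytes. For Egf in EC-1 and InjuredPT-A it was 0.574 and 0.783, within the range of the limb. The part of free or admixed limb RNA in these levels was not tested.

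Egf with AAI split by genotype in the thick limb. It was lower with AAI in the control mice and higher in the hKLF6 OE mice, with log2 differences of -0.33 and 0.79 in LH-AL-1 and of -0.31 and 0.29 in LH-AL-2. In LH-AL-1, Slc12a1 ran from 195 to 217 and was lower with AAI in both genotypes, while Umod, another limb gene, gave 41.5, 37.3, 30.4 and 38.8 and split in the directions of Egf. In LH-AL-2, Slc12a1 gave 155, 166, 157 and 147, higher with AAI in control and lower in hKLF6 OE. In LH-AL-3, Egf read 27.7, 8.71, 42.3 and 2.21 in the order control, control with AAI, hKLF6 OE and hKLF6 OE with AAI, so both AAI-treated mice stood below both uninjured mice. Log2 differences, AAI minus none, were -1.56 and -3.75, which placed Egf at number 4 of the 4220 genes measured there, ordered from the lowest by the smaller of both differences. Umod gave 9.33, 7.07, 15.6 and 3.36 in the same columns, while Slc12a1 lay between 121 and 130.

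A gene and cluster were counted as higher or lower with AAI when the larger value reached 0.5 in both genotypes and both log2 differences, with 1 added to each value, passed 0.2 with the same sign. Over all genes 13% of pairs of gene and cluster were higher and 9.75% lower by that rule. Of the 184 pairs of the 8 genes, 108 reached the minimum, and 24 were higher, 11 lower, 18 opposite in the genotypes and 55 neither. Egf gave 5 of the lower pairs and 0 of the higher ones. The other 4 lower pairs of Egf, beside LH-AL-3, were InjuredPT-A, IC-B-2, the macrophage cluster and LH-DL, in which mean Slc12a1 lay between 4.32 and 6.87. Slc12a1 was also lower with AAI in both genotypes in InjuredPT-A, at 8.12, 2.66, 12.3 and 4.41, and in IC-B-2, at 5.55, 1.08, 8.70 and 4.49. In LH-DL it gave 2.42, 7.06, 8.15 and 1.76, lower with AAI in hKLF6 OE only. The part of limb RNA in these differences of Egf was not tested.

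**Figure D2:**
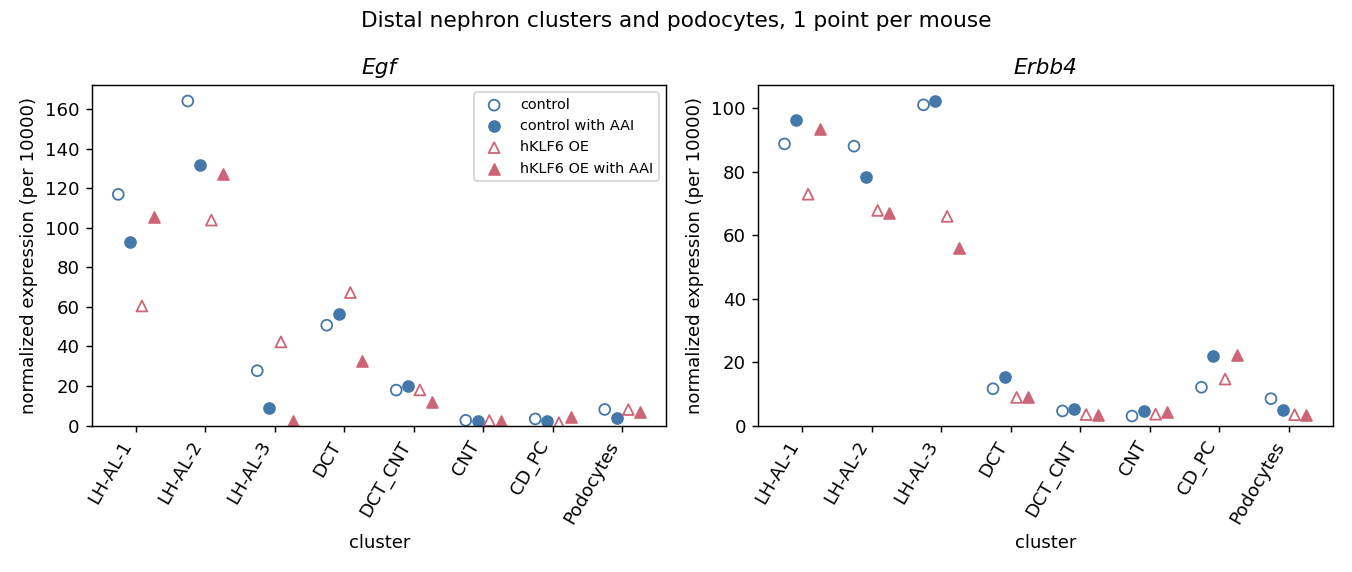
Normalized expression per 10000 (vertical axis, linear) of Egf (left) and Erbb4 (right) in 8 clusters of distal nephron and podocytes (horizontal axis), 1 point per mouse, open without AAI and filled with AAI, blue circles for control and red triangles for hKLF6 OE. Egf in LH-AL-3 is lower in both filled points, at 8.71 and 2.21, and Erbb4 in CD_PC is higher in both filled points, at 21.8 and 22.2.

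Nrg1, neuregulin 1, lies on chromosome 8 (31814551 to 32884029, minus strand). It was highest in the late proximal tubule and, of the 8 genes, had the largest difference with AAI in the normal proximal tubule. The only neighbours in its order without overlap were DCT and IC-B-2, the lowest clusters. In PT-S3-3 it read 6.11 in control, 21.4 in control with AAI, 6.22 in hKLF6 OE and 24.4 in hKLF6 OE with AAI. In PT-S3-2 the 4 mice gave 5.88, 11.99, 5.91 and 19.1, and in PT-S3-1 they gave 5.13, 18.4, 5.21 and 12.9. The uninjured mice stood close together in each of the 3 clusters, and both AAI-treated mice stood far above them. The values with AAI were between 2.04 and 3.93 times those without, and the log2 differences were 1.65 and 1.82 in PT-S3-3, 0.92 and 1.54 in PT-S3-2 and 1.66 and 1.17 in PT-S3-1 (control, then hKLF6 OE).

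Few genes went as high. By the smaller of both differences, Nrg1 was number 7 of 3954 genes measured in PT-S3-3, number 7 of 3760 in PT-S3-2 and number 13 of 3836 in PT-S3-1. Over all genes, 14.9%, 6.17% and 10.8% were higher in these clusters in the same order. In the earlier segments Nrg1 was lower and moved less. PT-S1-S2-2 gave 3.37, 5.83, 3.78 and 5.72, which counted as higher, and PT-S1-S2-1 gave 2.19, 2.97, 2.69 and 2.76, which did not.

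Egfr, the receptor of Egf, Hbegf and Areg, lies on chromosome 11 (16752203 to 16918158, plus strand) and followed Nrg1. Its mean in CD_PC, 3.95, lay beside 3.94 in PT-S3-2 and 3.82 in PT-S1-S2-1. Its only gap without overlap lay below LH-AL-2, at a mean of 1.52. In PT-S3-3 it read 3.60, 8.92, 3.09 and 9.93 in control, control with AAI, hKLF6 OE and hKLF6 OE with AAI. In PT-S3-1 it read 3.70, 7.84, 3.13 and 8.60, and in PT-S3-2 it read 2.80, 4.55, 2.32 and 6.07. Again both AAI-treated mice exceeded both uninjured mice in each cluster. The log2 differences were 1.11 and 1.42, 0.91 and 1.22, and 0.55 and 1.09, which placed Egfr at number 27, 32 and 28 of the genes measured in PT-S3-3, PT-S3-1 and PT-S3-2. In PT-S1-S2-2 the mice gave 4.21, 4.84, 3.78 and 6.44, not counted since the control difference fell short of 0.2, and in PT-S1-S2-1 they lay between 3.54 and 4.01. Without AAI, Egfr was thus lower in each S3 cluster than in either S1-S2 cluster of the same mouse, and with AAI it was higher in PT-S3-1 and PT-S3-3 than in both.

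Averaged with equal weight over the normal proximal tubule, 5 clusters in all, Nrg1 read 4.53 without and 12.1 with AAI in control mice, and 4.76 and 12.99 in hKLF6 OE mice. Its log2 differences of 1.25 and 1.28 made it number 3 of 3892 genes measured, of which 7.66% were higher and 5.83% lower. Egfr read 3.63 and 5.94 in control and 3.24 and 7.01 in hKLF6 OE, with differences of 0.58 and 0.92, at number 43. Of the other members, Egf, Erbb3 and Erbb4 reached the minimum in this mean and none was counted.

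**Figure D3:**
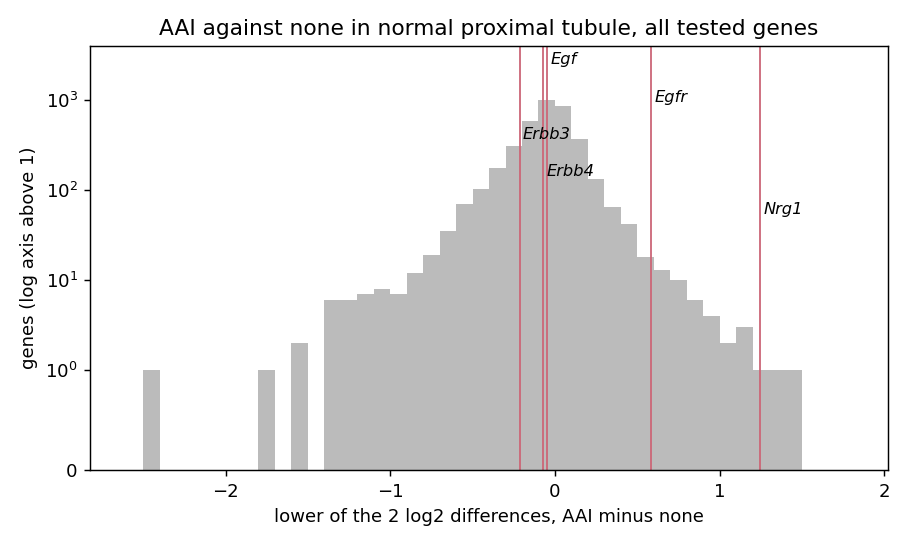
Number of genes (vertical axis, logarithmic above 1) by the lower of the 2 log2 differences, AAI minus none, averaged over 5 clusters of normal proximal tubule (horizontal axis) for the 3892 genes measured, with red lines at the 5 members among them. Nrg1 at 1.25 and Egfr at 0.58 lie in the right tail, and Egf, Erbb3 and Erbb4 lie near 0.

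Segment and injury markers moved in the same clusters. The summed level of the S1/S2 markers Slc5a12 and Slc5a2 in PT-S3-1 was 3.66, 9.13, 3.34 and 25.8 in the order above, and that of the S3 markers Cyp7b1 and Slc7a13 was 13.8, 10.3, 9.40 and 2.82. The sum of the 5 injury markers Havcr1, Cxcl1, Krt20, Lcn2 and Vcam1 there was 0.110, 1.33, 0.103 and 2.67. Cxcl1 alone gave 0.0856, 1.23, 0.0763 and 2.599, so most of this sum was Cxcl1 in each mouse. In PT-S3-3 the S3 sum was 21.4, 33.7, 15.1 and 38.7. The injury sum there was 0.0976, 2.72, 0.105 and 2.93, of which Cxcl1 gave 0.0631, 2.63, 0.0795 and 2.65. The sum of the proximal tubule markers Lrp2, Slc34a1 and Hnf4a was 82.2, 26.9, 59.4 and 24.5, while Lrp2 alone read 22.6, 14.6, 14.6 and 18.3. In PT-S3-2 the S3 sum was 57.8, 75.7, 58.8 and 71.2, and the S1/S2 sum lay between 3.10 and 3.59. Its injury sum was 0.0864, 0.573, 0.158 and 0.516, of which Cxcl1 gave 0.0279, 0.504, 0.120 and 0.432. Its proximal sum was 38.2, 24.7, 31.1 and 25.3, so these sums also differed with AAI. Lrp2 alone was lower with AAI in control and higher with AAI in hKLF6 OE in each PT-S3 cluster. The part of the make-up and the injury of the clusters in the differences of Nrg1 and Egfr was not tested.

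Nrg1 and Egfr were also higher with AAI outside the clusters named proximal tubule. Of the 9 clusters in which Nrg1 counted as higher, 4 were outside it, DCT, EC-1, CD_PC and DCT_CNT, and of the 10 of Egfr, 5 were, the same and podocytes. Neither gene counted as lower in a cluster, but the genotypes went opposite ways in 6 clusters for Nrg1 and in 3 for Egfr. Nrg1 in EC-1 read 3.36, 7.55, 3.44 and 7.31 and was number 4 of 4210 genes, and Egfr in DCT_CNT read 2.23, 4.39, 1.91 and 4.49 and was number 8 of 3992. These clusters held proximal markers, with a sum of Lrp2, Slc34a1 and Hnf4a of 64.4, 37.3, 46.9 and 39.2 in EC-1 and of 56.2, 32.5, 42.2 and 34.0 in DCT_CNT. In CD_PC, the principal cells of the collecting duct, Nrg1 read 1.13, 2.56, 1.89 and 3.88 and Egfr 3.81, 4.58, 2.78 and 4.63, with a proximal sum of 19.2, 11.5, 14.7 and 8.12. The part of proximal RNA in these values was not tested.

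**Figure D4:**
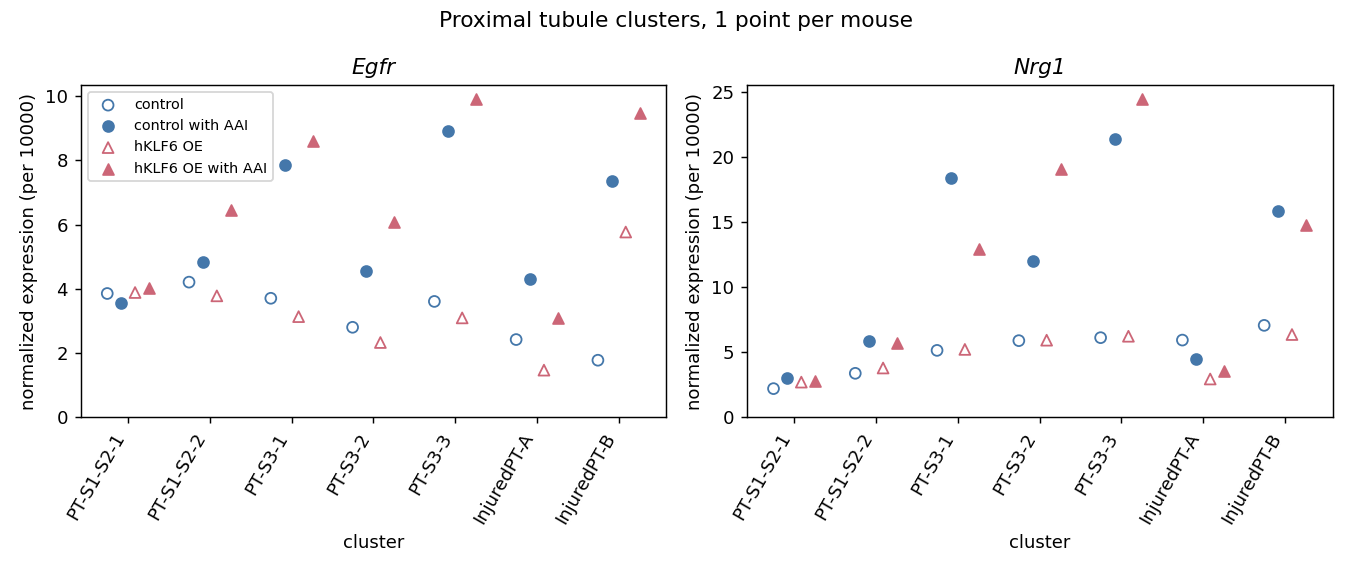
Normalized expression per 10000 (vertical axis, linear) of Egfr (left) and Nrg1 (right) in the 5 normal and 2 injured proximal tubule clusters (horizontal axis), 1 point per mouse, open without AAI and filled with AAI, blue circles for control and red triangles for hKLF6 OE. In the 3 PT-S3 clusters both filled points lie above both open points, up to 9.93 for Egfr and 24.4 for Nrg1, and in PT-S1-S2-1 the points lie together.

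Erbb4, a receptor of neuregulins and of Hbegf, lies on chromosome 1 (68032186 to 69108059, minus strand). It read 88.7, 96.3, 72.9 and 93.4 in LH-AL-1, 101, 102, 65.9 and 55.9 in LH-AL-3 and 88.0, 78.3, 67.8 and 67.1 in LH-AL-2. The 3 clusters overlapped each other, and all stood above CD_PC without overlap, the only such gap in its order. In CD_PC the mice gave 12.1, 21.8, 14.6 and 22.2, so both AAI-treated mice exceeded both uninjured mice, with log2 differences of 0.80 and 0.57, number 36 of 4088 genes. The sum of the principal cell markers Aqp2, Aqp3, Scnn1g and Fxyd4 there was 15.5, 15.4, 25.1 and 12.2, and that of the connecting tubule markers was 17.2, 23.4, 11.99 and 24.7. The connecting tubule sum was higher with AAI in both genotypes, as Erbb4 was, and its part in the difference was not tested. In CNT, the connecting tubule cluster, that sum was 385, 303, 240 and 427. Erbb4 there read 3.00, 4.63, 3.58 and 4.39, below CD_PC in every mouse, and also counted as higher.

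Erbb4 was lower with AAI in InjuredPT-A, the mesangial cluster, IC-B-2 and the macrophage cluster. Slc12a1 was also lower with AAI in both genotypes in InjuredPT-A and IC-B-2. In the mesangial and macrophage clusters the sum of the ascending limb markers was lower with AAI in hKLF6 OE only. In the 5 normal proximal tubule clusters its mean was between 0.483 and 0.804, and its ratio to Slc12a1 lay between 0.357 and 0.441, against 0.427 to 0.65 in the limb. The ratio was 4.80 in CD_PC, 3.90 in DCT, 2.18 in DCT_CNT, 2.17 in podocytes and 1.65 in CNT, all above the range of the limb. The source of Erbb4 RNA in these clusters was not tested.

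Erbb3, a receptor of neuregulins with little kinase activity of its own, lies on chromosome 10 (128567523 to 128589652, minus strand) and had its highest mean at 0.939 in InjuredPT-A. The 5 normal proximal tubule clusters lay between 0.763 and 0.903, and podocytes were lowest at 0.17. No neighbours in its order stood apart. Erbb2, the partner receptor on chromosome 11 (98412470 to 98437716, plus strand), reached 0.5 in 0 of 92 columns, and its highest mean was 0.306 in LH-DL. Erbb2 was therefore too low for any difference to be counted.

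Hbegf, a ligand bound to the membrane until shed, lies on chromosome 18 (36504927 to 36515805, minus strand). It was low, with means of 1.01 in IC-B-2, 0.967 in LH-DL, 0.706 in InjuredPT-A and 0.564 in InjuredPT-B. The first of these rested on 0.461, 1.99, 1.12 and 0.466, and the second on 0.517, 2.64, 0.316 and 0.394, so in both clusters the control mouse with AAI was highest. Hbegf reached the minimum in the comparison of AAI in 5 clusters and was higher in PT-S3-3, InjuredPT-A and InjuredPT-B. In these 3 clusters it reached 0.5 in the AAI-treated mice only. It thus entered the count through the mice in which it was high, which favours a call of higher. In InjuredPT-A it was listed at 0 in control and read 1.07 in control with AAI, 0.184 in hKLF6 OE and 1.57 in hKLF6 OE with AAI. In InjuredPT-B it read 0.239, 0.954, 0 and 1.06, and in PT-S3-3 it read 0.300, 0.659, 0.305 and 0.536. In all 3 clusters both AAI-treated mice stood above both uninjured mice, and the uninjured columns of the injured clusters are sparse.

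Areg, amphiregulin, on chromosome 5 (91139599 to 91148432, plus strand), was at 0 in 80 of 92 columns. Its highest value was 0.105, in InjuredPT-B of control with AAI, followed by 0.054 in the same cluster of hKLF6 OE with AAI, and both uninjured mice were at 0 there. At these levels no difference was counted.

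The injured clusters were set against the normal proximal tubule, averaged over its 5 clusters, of the same AAI-treated mouse. Of all genes measured in InjuredPT-A, 43.3% stood above the normal tubule and 27% below it, and for InjuredPT-B these shares were 23.4% and 13.1%. The medians of all genes measured were 0.19 and 0.15 in InjuredPT-A and 0.11 and 0.10 in InjuredPT-B on the log2 scale (control, then hKLF6 OE), so that gene values there are to be read relative to that shift. In both clusters 6 members reached the minimum. In hKLF6 OE with AAI, Hbegf did so through the injured clusters only, as it read 0.398 in the normal tubule.

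In InjuredPT-B, Egfr and Hbegf were higher and none was lower. Egfr read 7.37 against 5.94 in control with AAI and 9.48 against 7.01 in hKLF6 OE with AAI, with log2 differences of 0.27 and 0.39. Hbegf differed by 0.35 and 0.56. Nrg1 read 15.9 against 12.1 and 14.8 against 12.99, with differences of 0.36 and 0.17, and was not counted. After centring on the median of all genes Egfr was no longer counted, and Hbegf alone was higher.

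In InjuredPT-A, Nrg1 and Egfr were lower than in the normal tubule of the same mouse. Nrg1 read 4.46 against 12.1 and 3.54 against 12.99, with differences of -1.26 and -1.62, and Egfr read 4.30 against 5.94 and 3.08 against 7.01, with differences of -0.39 and -0.97. Hbegf was higher by 0.43 and 0.88. Egf and Erbb4 were also counted as higher, by 0.61 and 0.94 and by 0.50 and 0.95. In the same 2 mice Slc12a1 read 2.66 and 4.41 in InjuredPT-A, and Umod read 7.60 and 9.39. The summed ascending limb markers in the AAI-treated mice were 11.5 and 14.7 in InjuredPT-A and 9.15 and 9.35 in InjuredPT-B, and the part of limb RNA in these differences was not tested.

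The genes around the receptors were described by lists of sheddases, feedback inhibitors, cascade genes and target genes. With AAI in the normal proximal tubule few were counted. Of the sheddases and their partners, 2 of 9 genes reached the minimum and 0 were counted. Of 17 inhibitors 9 reached it and Errfi1 and Lrig3 were higher. Errfi1, which binds and blocks the kinase of Egfr, read 20.8 without and 24.7 with AAI in control and 18.9 and 21.98 in hKLF6 OE, with differences of 0.23 and 0.21. Of 27 cascade genes 18 reached it and Stat3 alone was higher, by 0.42 and 0.32. Of 12 target genes 2 reached it, and Egr1, an immediate early factor, was higher by 1.13 and 1.33. List medians were -0.11 and 0.16 for sheddases, 0.65 and 0.92 for targets, 0.0053 and 0.17 for inhibitors and 0.0044 and 0.094 for cascade genes, beside 0.0073 and 0.05 over all genes. The median of targets rests on 2 genes and does not stand for the list. Egr1 reached the minimum with AAI only, at 2.11 against 0.420 in control and 2.02 against 0.199 in hKLF6 OE.

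Genes of every list enter the count by the larger value, so a gene that is high in an injured cluster alone can enter through it. The counts below therefore do not stand for the whole lists, such as the 12 target genes. In InjuredPT-A, where 43.3% of all genes measured were higher, 6 of the 7 target genes that reached the minimum were higher and 0 lower, with medians of 0.49 and 0.98, beside 0.19 and 0.15 over all genes. They were Fosl1, Jun, Ier2, Ier3, Ccnd1 and Phlda1, of which Jun read 1.55 against 0.794 and 3.65 against 0.903. In InjuredPT-B, where 23.4% of all genes were higher, the 3 that reached it, Jun, Egr1 and Ier2, were higher, with medians of 0.37 and 0.28. These genes respond to many stimuli other than EGF receptors.

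Errfi1 was lower in both injured clusters. It read 6.35 against 24.7 and 7.04 against 21.98 in InjuredPT-A, and 16.5 against 24.7 and 13.2 against 21.98 in InjuredPT-B. Timp3, an inhibitor of the sheddase Adam17, was lower as well, at 6.10 against 17.8 and 8.37 against 18.7 in InjuredPT-A and at 13.8 against 17.8 and 10.8 against 18.7 in InjuredPT-B. Adam10, a sheddase of Egf, and Rhbdf2, a partner of Adam17, were higher in both, with Rhbdf2 at 1.17 against 0.457 and 1.35 against 0.573 in InjuredPT-B.

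Of the inhibitors, 12 reached the minimum in InjuredPT-A, with Socs4, Dusp4 and Dusp6 higher and Errfi1, Cblb and Spred2 lower. Dusp6, a phosphatase of ERK, read 1.20 against 0.280 and 1.48 against 0.246. In InjuredPT-B 11 reached it, with 4 higher, Cbl, Socs4, Spred1 and Spred2, and Errfi1 lower, beside 23.4% higher and 13.1% lower over all genes. Spred2 was thus lower in the one cluster and higher in the other. Of the cascade genes, 7 of 20 were higher and 3 lower in InjuredPT-A, where Gab2, an adaptor, read 0.606 against 2.45 and 0.937 against 3.16. In InjuredPT-B 3 of 18 were higher, among them Grb2 and Stat3, and 0 were lower. The medians of sheddases, inhibitors and cascade genes were 0.33 and 0.18, 0.041 and -0.078, and 0.11 and -0.026 in InjuredPT-A. In InjuredPT-B they were 0.29 and 0.26, 0.21 and 0.19, and 0.18 and 0.16.

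Of the 7 other EGF-family ligands 5 had a row and none reached the minimum in these proximal comparisons. Btc, betacellulin, had its highest mean at 1.23 in CD_PC, with 0.185 in the next cluster. Nrg2 was highest at 1.41 in the macrophage cluster and Tgfa at 0.80 in LH-DL. Nrg3 and Nrg4 stayed at or below 0.0616 and 0.244.

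hKLF6 OE was then set against control, once without and once with AAI. These comparisons use the same 4 mice as those of AAI. Over all genes 4.8% of pairs of gene and cluster were higher and 7.03% lower in both. Of 109 pairs of the 8 genes that reached the minimum, 7 were higher, 18 lower, 15 opposite and 69 neither. Erbb3 and Erbb4 gave 6 lower pairs and 1 higher pair each.

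Erbb3 in hKLF6 OE was lower than in control in PT-S1-S2-1, PT-S1-S2-2, PT-S3-1, InjuredPT-A, EC-1 and DCT_CNT. EC-1 and DCT_CNT also held proximal markers, and the part of proximal RNA in their differences was not tested. In IC-B-2 Erbb3 was higher in hKLF6 OE, at 0.601 and 1.52 without AAI and 0.226 and 0.862 with it. In PT-S1-S2-1 it read 1.01 in control and 0.587 in hKLF6 OE without AAI and 0.897 and 0.615 with AAI, with log2 differences of -0.34 and -0.23. In PT-S1-S2-2 it read 1.09 and 0.543, and 0.831 and 0.592. In PT-S3-1 it read 1.06 and 0.723, and 0.903 and 0.410. Both hKLF6 OE mice stood below both controls in these 3 clusters. In PT-S3-3 the AAI-treated mice went the other way, at 0.724 and 0.946, and this cluster was not counted. These values were near or below 1, where the pseudocount of 1 shrinks a log2 difference.

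**Figure D5:**
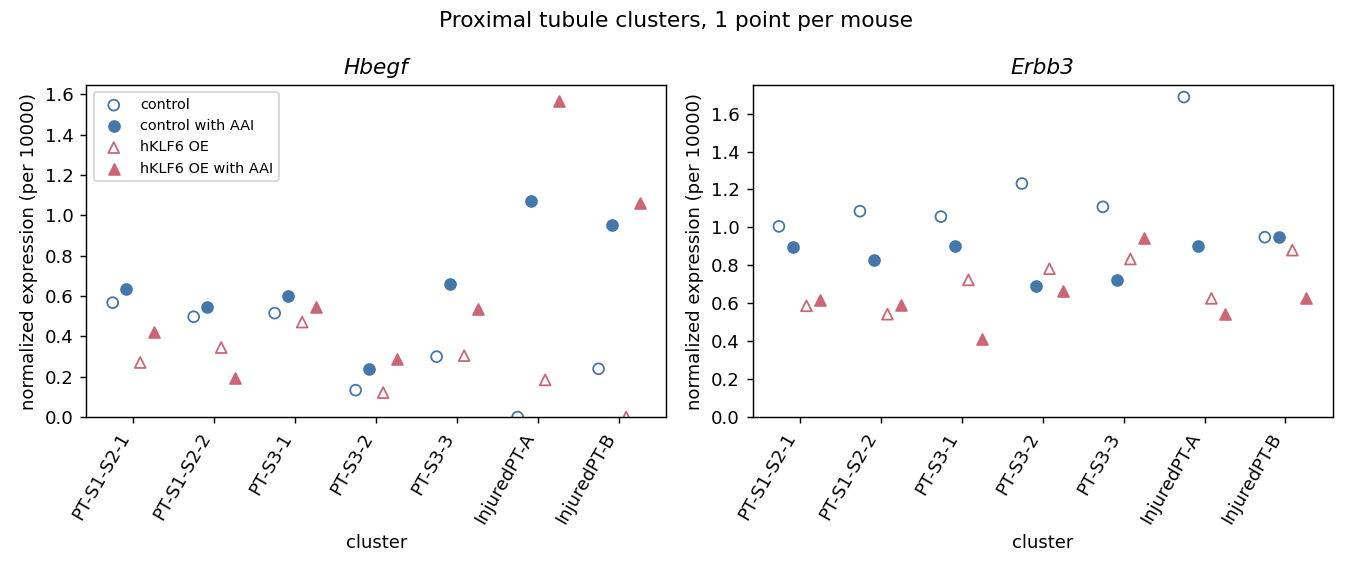
Normalized expression per 10000 (vertical axis, linear) of Hbegf (left) and Erbb3 (right) in the 5 normal and 2 injured proximal tubule clusters (horizontal axis), 1 point per mouse, with the same symbols as above. Hbegf is above 0.9 in the filled points of the injured clusters, and Erbb3 in PT-S1-S2-1, PT-S1-S2-2 and PT-S3-1 is lower in both red triangles than in both blue circles.

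Erbb4 in hKLF6 OE was lower in LH-AL-2, LH-AL-3, DCT, DCT_CNT, podocytes and IC-A. It was higher in InjuredPT-A, at 1.99 and 4.56 without AAI and 1.24 and 2.23 with it. In LH-AL-3 the values were 101 and 65.9 without AAI and 102 and 55.9 with AAI, with differences of -0.61 and -0.86. In DCT they were 11.6 and 8.86, and 15.2 and 9.03, which made Erbb4 number 16 of 3593 genes by the size of the fall. In podocytes they were 8.46 and 3.42, and 4.80 and 3.19. LH-AL-1 was no such case, with 88.7 and 72.9, and 96.3 and 93.4. Slc12a1 in LH-AL-3 was 130 and 127 without AAI and 123 and 121 with it.

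Egf in IC-A, a cluster of intercalated cells, was lower in hKLF6 OE, at 4.45 and 1.77 without AAI and 4.41 and 1.71 with it, number 4 of 4080 genes there. The sum of the distal convoluted tubule markers in IC-A was also lower in hKLF6 OE. It was 12.5 and 4.19 without AAI and 12.5 and 5.45 with it. The part of distal convoluted tubule RNA in the differences of Egf and Erbb4 in IC-A was not tested. Nrg1 in LH-AL-3 was higher, at 0.340 and 2.61 without AAI and 0.450 and 3.43 with it, with differences of 1.43 and 1.61, number 1 of 4130 genes. At least 60.5% of genes are at 0 in each column of that cluster. Nrg1 in the PT-S3 clusters without AAI was close in both genotypes, with values of 5.13 and 5.21, 5.88 and 5.91, and 6.11 and 6.22. With AAI it was lower in hKLF6 OE in PT-S3-1 and higher in PT-S3-2 and PT-S3-3.

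Genes with the most similar pattern were taken by Pearson's r of log2 values over the 23 cluster means, among 8111 genes, as a description. Those nearest to Nrg1 were Gm15638 (r = 0.969), Acot12 (0.954) and Notum (0.950), all 3 highest in PT-S3-3. Nearest to Egfr were Lrrc28 (0.938), Sec24a (0.921) and Them7 (0.901). Nearest to Egf were Ppp1r1a (0.942), Mfsd4a (0.929) and Gm49272 (0.913), and nearest to Erbb4 were Ephb2 (0.898), Slc12a1 (0.884) and Gm15952 (0.884). For Erbb3, Caprin1 (0.859), Lmtk2 (0.840) and Hoxb3os (0.834) came first, and for Hbegf, Lonrf3 (0.811), Mtfr1 (0.780) and Fbxo8 (0.771). Points share libraries and depth, and r for the low genes Erbb3 and Hbegf rests on values near 1.

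Antisense genes overlap some members, and whether strand was used in counting is not given in the sources used here. Gm42697, Gm42650 and 6330410L21Rik overlap Egf, Egfros overlaps Egfr and Gm26578 overlaps Nrg1. Their own highest means were 0.284, 0.153, 0.14, 0.104 and 0.198.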

How the data were processed

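Nuclei of kidney cortex from 4 male mice, 1 each of control, control with AAI, hKLF6 OE and hKLF6 OE with AAI, were sequenced on the 10x platform. Per the labels and the paper's methods, the authors used Cell Ranger with a pre-mRNA version of mm10, which keeps intronic reads, and then Seurat for clusters. No doublet step is named for the RNA. The deposited signal values are linear means per cluster and mouse of counts scaled by the authors to 10000 per nucleus. The averaging function is not given in the sources used here, so the unit rests on the values, of which all 92 columns summed to 10000 within 0.01. Long genes gain from intronic reads, so levels of different genes were ordered per kilobase of span only.

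Of 19632 rows, 23 with date-like names were left out. Cluster names were taken in the sheet order of the study's marker table and checked on markers. Differences were taken as log2(value + 1) where the larger value reached 0.5 in both pairs of mice, with a threshold of 0.2 in both. The normal proximal tubule was the unweighted mean of 5 clusters. No test was made, since each condition has 1 mouse. A fit of genotype and AAI without their interaction, with 1 residual degree of freedom, was not made, and 2 mice against 2 could not reach 0.05 in an exact permutation test. Genes named are the 8 members in full, the 3 genes most like each member whose highest mean reached 0.5, the counted genes of each list with the largest differences, up to 3 per list and comparison, and markers. Genes named beyond 3 complete a short count, with their values already known. The values of 1 cascade gene are not reported here. The members and lists were chosen with earlier results of these data known. Alternatives were a pseudocount of 0.1, no minimum or a minimum of 2, thresholds of 0.5 and 1, centring on the median, each pair of mice alone, the 3 PT-S3 clusters as reference, leaving out each mouse, and Spearman's rho. The method was tested on simulated data only for log2 changes of 1 in either direction, in genes at 2 or more, and for a planted similar pattern. Smaller changes, changes in lower genes, sparse clusters and differences between mice were not simulated. Coordinates are from GENCODE M21 on GRCm38, the same build as mm10, and promoters from RefSeq GRCm38.p6. Python 3.11.15, numpy 2.4.6, pandas 2.3.3 and matplotlib 3.10.9 were used.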

Additional observations from a re-analysis of the deposited data

Results flagged for a closer look

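Some members differed in opposite directions in the pairs of mice compared, and these differences between pairs were not tested. Over all genes 10.1% of measured pairs of gene and cluster did so for AAI and 12.1% for hKLF6 OE, beside 18 of 108 and 15 of 109 for the members. The same 4 mice serve both comparisons. Among the 5 highest clusters of each member and the injured clusters there were 8 such cases. Each is given as the difference of the log2 differences, control minus hKLF6 OE for AAI and no AAI minus AAI for genotype.

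With AAI, Egf gave -1.12 in LH-AL-1 and -0.60 in LH-AL-2, lower in control mice and higher in hKLF6 OE mice in both. Nrg1 in InjuredPT-A gave -0.55, on columns of uninjured mice in which 62.6% and 40.8% of genes are at 0. Hbegf in IC-B-2 gave 1.56 with AAI and 1.56 by genotype, as the same 4 values enter both, of which control with AAI at 1.99 was highest.

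By genotype, Egf in DCT gave 1.18, higher in hKLF6 OE without AAI and lower with it. Egf in LH-AL-3 gave 2.19 in the same directions, in columns with at least 60.5% of genes at 0. Erbb4 in InjuredPT-B gave -0.67, at levels between 0.477 and 1.18.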

How the results depend on the processing

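No paired analysis was possible because the results come from no test. Differences were taken between mice matched on genotype or treatment. The counts depended mainly on the threshold and on asking both pairs of mice. For AAI, 24 pairs of gene and cluster higher became 5 at a threshold of 1, 40 in control mice alone and 50 in hKLF6 OE mice alone. The 11 lower became 7 at a minimum of 2, 3 and 2 at thresholds of 0.5 and 1, and 32 and 25 in each genotype alone. For hKLF6 OE, the 7 higher became 4 at a minimum of 2, 4 and 1 at thresholds of 0.5 and 1, and 19 without and 27 with AAI. The 18 lower became 10 at a minimum of 2, 2 and 0 at the thresholds, and 45 and 39 by treatment.

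In InjuredPT-A, 3 members higher became 1 at a minimum of 2, 1 at a threshold of 0.5 and 0 at 1, and 2 lower became 1 at either threshold. In InjuredPT-B, 2 higher became 1 at a minimum of 2, after centring or against the 3 PT-S3 clusters, and 0 at either threshold. Of 8 members, between 5 and 7 kept their highest cluster when 1 mouse was left out, 4 in uninjured mice alone and 5 in AAI-treated mice alone. In uninjured mice Nrg1 was highest in InjuredPT-B and Egfr in PT-S1-S2-2. Of 18 most similar genes 5 were kept with Spearman's rho. The causes were not tested, beyond fewer genes passing a stricter rule. No counted difference of those recomputed changed sign with the pseudocount or centring. The mean difference of Erbb3 in PT-S3-3 by genotype, not counted, went from -0.013 to 0.0028 after centring. With a pseudocount of 0.1, Erbb3 in PT-S3-1 went from -0.34 to -0.73 and Hbegf in InjuredPT-A with AAI from 1.08 to 3.05, as means of both pairs. Without numbers of nuclei, differences in sparse clusters have no known precision.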
